A study of Mus musculus with 2 samples.

Results

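Interferon-response genes are genes that cells switch on when interferons bind their receptors, and 45 of them were followed here in mouse colon. They were selected by name from knowledge of the pathway, with earlier results of these data known. A gene counted as measured when a probe set of the array was annotated to that gene alone. This held for 41 of the 45, out of 22180 genes measured in all. Of the other 4, Gbp2, Oas1a and Tgtp1 shared their probe sets with a close relative, and Ifi44 was not analysed here. The members were divided into 31 genes that answer mainly to type I interferon, 29 of them measured, and 14 that answer mainly to interferon-gamma, 12 of them measured.

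The study compared colon RNA of healthy male ICR mice, an outbred stock, aged 7 weeks, on 2 whole-transcript arrays. The control array carried RNA of mice whose food held no psyllium, and the psyllium array RNA of mice whose food held 10% of this gel-forming husk fibre, each given for 5 days. How many mice stand behind an array, and which layers of the colon were taken, is unknown from the labels. With 1 array per diet there is no replicate, so no error, test or p-value is given, and every difference is between these 2 arrays. Values are the deposited normalised intensities, and a difference is log2 psyllium minus log2 control. Intensities of different genes are not compared, since each probe set has its own brightness. An intensity of 69.5, the median over all genes of the brighter of the 2 values, serves as a filter that marks dim genes, and a gene is counted as lower or higher from 1.5-fold.

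Type I interferons act through a receptor whose signal brings a complex with STAT2 and IRF9 to the interferon-stimulated response element, or ISRE. Interferon-gamma, made largely by T cells and natural killer cells, acts through a receptor of its own on genes with a gamma-activated site, or GAS, and raises IRF1. In the gut epithelium lambda interferons bind a separate receptor but lead to the same response element as type I interferons. Many of the target genes answer to more than one kind of interferon, so the division in classes is one of degree.

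RefSeq promoters, assembly GRCm38.p6, were given for 33 of the 45 members, each reaching from 250 bases before the start of transcription to 50 bases after it. They were searched for ISRE-like letters, GAAA repeated after any 2 bases, on either strand (so TTTC repeated after any 2 bases when read from the opposite one), and for GAS-like letters, TTCNNNGAA, which read alike on both strands. Matches of the 2 motifs may overlap each other. ISRE-like letters occurred in the promoters of 22 of the 33 members (66.7%), against 3.99% of all 27025 genes with a promoter and 3.44% of all 32851 promoters. GAS-like letters occurred in 12 of the 33 (36.4%), against 9.55% of all genes and 8.30% of all promoters. The members were selected as interferon-answering genes, so this describes them and is no separate finding. Matches are letters in a window, not shown binding sites.

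Among mainly type I genes 13 of 22 had ISRE-like and 5 of 22 GAS-like letters. Among mainly interferon-gamma genes the counts were 9 of 11 and 7 of 11. The following stretches show the letters before the start of transcription, with matches in capitals, in members at least 1.5-fold lower with psyllium (Ifit1, Rsad2), in members with smaller negative differences (Isg15, Ifit3) and in Oas3, which hardly differed.
Ifit1: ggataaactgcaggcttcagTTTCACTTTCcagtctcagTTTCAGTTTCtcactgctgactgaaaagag
Rsad2: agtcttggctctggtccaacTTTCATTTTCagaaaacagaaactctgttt
Isg15: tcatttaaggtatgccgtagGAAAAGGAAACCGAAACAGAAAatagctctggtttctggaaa
Ifit3: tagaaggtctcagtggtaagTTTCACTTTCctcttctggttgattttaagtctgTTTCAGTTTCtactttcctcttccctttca
Oas3: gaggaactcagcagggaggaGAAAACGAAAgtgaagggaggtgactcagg
They lie at chr19:34640765-34640833 (plus strand), chr12:26456543-26456592 (minus), chr4:156200855-156200916 (minus), chr19:34583353-34583436 (plus) and chr5:120777705-120777754 (minus), in this order. Isg15 held 3 overlapping ISRE-like matches, Ifit1 and Ifit3 held 2 each, and Rsad2 and Oas3 held 1 each.

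In 3 of the interferon-gamma class, the immunity-related GTPases Igtp, Irgm2 and Tgtp1, GAS-like letters stood just before ISRE-like letters, with 2 bases between them in each.
Igtp: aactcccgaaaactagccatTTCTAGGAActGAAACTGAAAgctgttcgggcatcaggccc
Irgm2: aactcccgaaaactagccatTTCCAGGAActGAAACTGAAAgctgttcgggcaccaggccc
Tgtp1: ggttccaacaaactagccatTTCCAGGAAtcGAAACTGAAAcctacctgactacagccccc
These stretches lie at chr11:58199491-58199551 (plus), chr11:58214882-58214942 (plus) and chr11:48992294-48992354 (minus). Over the 32 bases from 11 before the GAS-like match to the end of the ISRE-like match, Igtp and Irgm2 shared 31 bases, Igtp and Tgtp1 29, and Irgm2 and Tgtp1 30. This window covers the part where all 3 are alike. In the printed bases outside it Tgtp1 differed from Igtp and from Irgm2 at most positions.

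**Figure D1:**
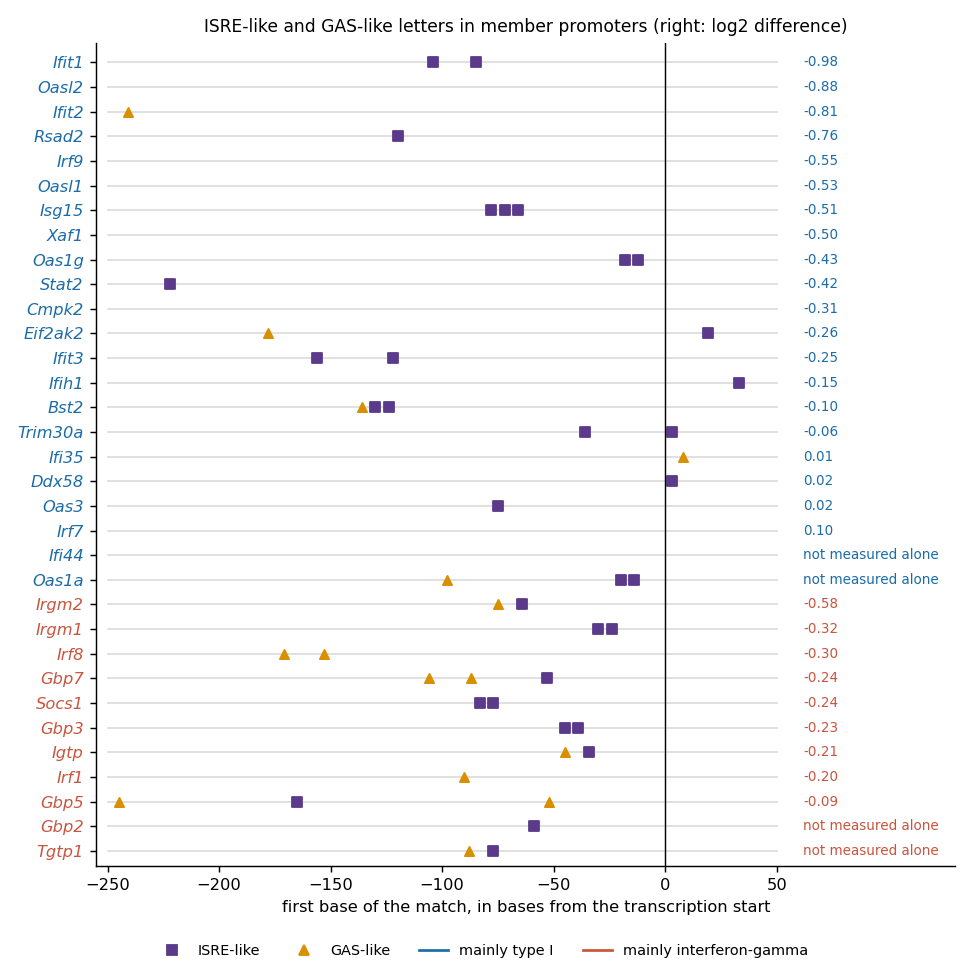
Each row is 1 of 33 members with a RefSeq promoter, the x axis gives the first base of a match in bases from the start of transcription, squares are ISRE-like and triangles GAS-like letters, and the number on the right is the log2 difference, psyllium minus control. Genes with 2 promoters have both on 1 row; Oasl2 at -0.88 and Irf9 at -0.55 have no match in the window, whereas Oas3 at 0.02 has 1.

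Differences of interferon-response genes were mostly negative, psyllium minus control. Of the 41 measured members 36 had a negative difference, beside 50.2% of all genes. At least 1.5-fold lower were 7 of the 41 (17.1%), beside 2.8% of all genes, and none was at least 1.5-fold higher, beside 3.42% of all genes. The members' median difference was -0.32, against -0.0025 for all genes, and the lowest and highest were -0.98 and 0.13. None reached a 2-fold difference. In bulk tissue fewer cells of a type and less RNA per cell cannot be told apart.

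**Figure D2:**
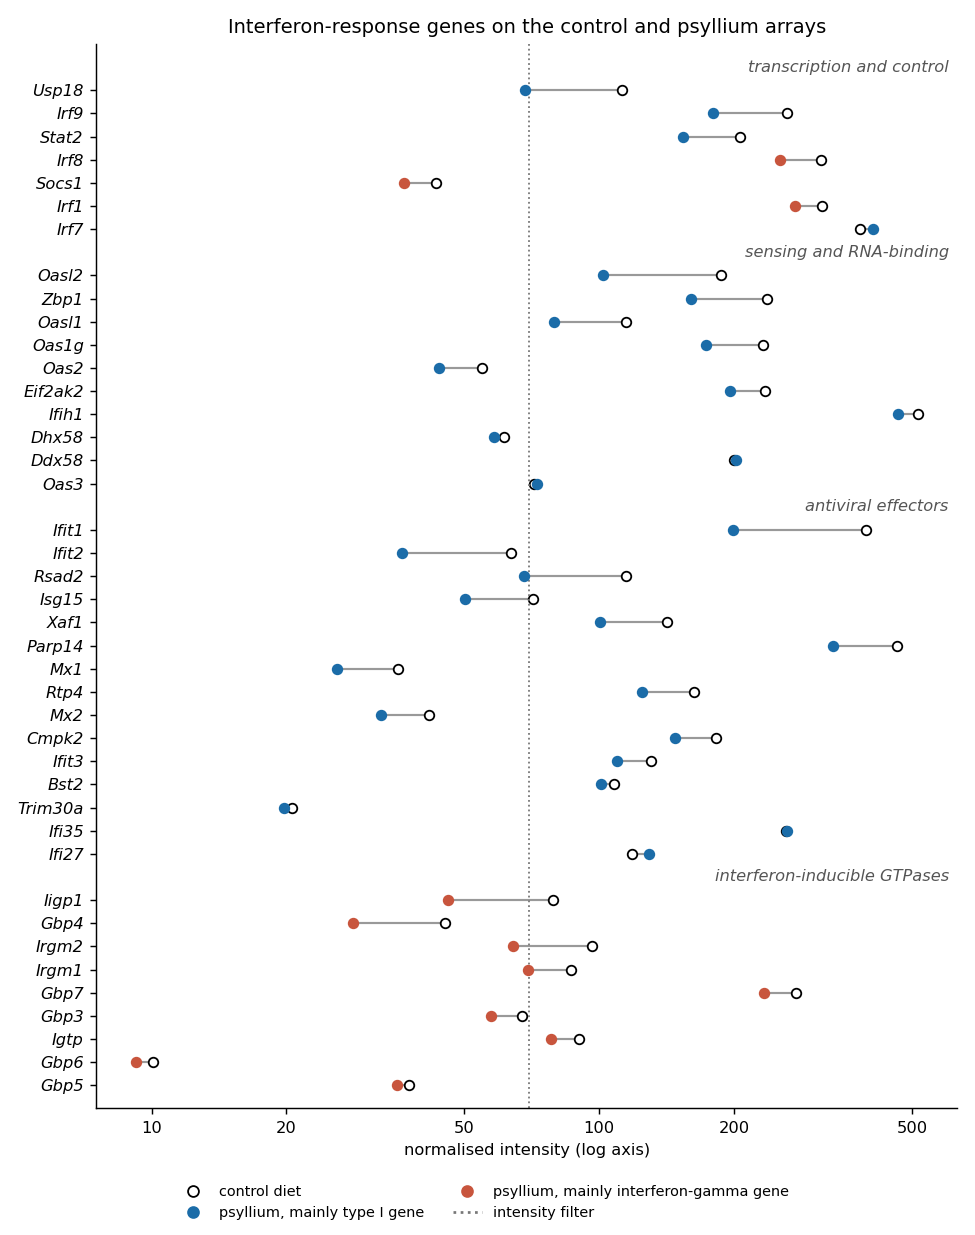
Normalised intensity (log axis) of the 41 measured members on the control array (open circles) and the psyllium array (filled circles, blue for mainly type I and red for mainly interferon-gamma genes), 1 array each, with the intensity filter of 69.5 as a dotted line. The filled circle lies left of the open one in 36 rows, with the widest gap at Ifit1, from 393 to 199.

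The transcription factors and controllers come first. Usp18, a protease that removes ISG15 from proteins and damps the type I receptor, had intensities of 113 (control) and 68.4 (psyllium), an order kept for all pairs of values that follow, and a difference of -0.72 (1.65-fold lower). IRF9 and STAT2 are parts of the ISRE-binding complex. Irf9 had intensities of 263 and 179 (-0.55, 1.46-fold lower). Stat2 had 206 and 154 (-0.42). The factors tied to interferon-gamma differed by less. Irf1 had 315 and 273 (-0.20). Irf8, which is also a lineage factor of myeloid and B cells, had 313 and 253 (-0.30), and a second, dimmer probe set had 61.1 and 58.9. Socs1, the JAK inhibitor induced by cytokines, lay below the intensity filter on both arrays at 43.2 and 36.7 (-0.24). Irf7, the factor that amplifies interferon-alpha production, was the 1 member of this group with a positive difference, from 382 to 408 (0.10). Of these 7 genes 1 was at least 1.5-fold lower (2.8% of all genes were) and 6 had negative differences (50.2% of all genes did). Their median was -0.30.

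Among sensors and RNA-binding proteins Oasl2, an oligoadenylate synthetase-like gene, differed most. It had intensities of 187 and 102 (-0.88, 1.84-fold lower). Its neighbour Oasl1 had 115 and 79.1 (-0.53). Zbp1, a sensor of Z-form nucleic acid that can start necroptosis, had 237 and 160 (-0.57, 1.48-fold lower). The oligoadenylate synthetases make the messenger that activates RNase L, and their values diverged. Oas1g had 233 and 173 (-0.43) and Oas2 had 54.6 and 43.8 (-0.32), but Oas3 had 71.6 and 72.5 (0.02).

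The cytosolic RNA helicases, which detect viral RNA before interferon is made, differed little. Ifih1, encoding MDA5, had 516 and 464 (-0.15), Ddx58, encoding RIG-I, 200 and 202 (0.02), and their relative Dhx58 61.4 and 58.1 (-0.08). Eif2ak2, the kinase PKR that halts translation, had 235 and 195 (-0.26). Of the 10 measured genes in this group 1 was at least 1.5-fold lower (2.8% of all genes were). In 8 the difference was negative (50.2% of all genes), and the median was -0.29.

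The antiviral effectors held the lowest member. Ifit1, which binds viral RNA lacking the host's cap methylation, had intensities of 393 and 199, a difference of -0.98 (1.98-fold lower). Only 0.473% of all genes had a difference as low. Ifit2 had 63.5 and 36.2 (-0.81), both below the intensity filter, so its size is less certain. Rsad2, encoding viperin, which makes a chain-terminating nucleotide, had 115 and 67.8 (-0.76, 1.69-fold lower). Its chromosomal neighbour Cmpk2, a nucleotide kinase, had 182 and 147 (-0.31). The psyllium values of Rsad2, Usp18, Isg15, Iigp1, Irgm2 and, narrowly, Irgm1 lay below the filter although their control values did not, so the size of their folds is less certain.

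The remaining effectors spread from modest negative to small positive differences. Isg15, the ubiquitin-like modifier, had 71.2 and 50.1 (-0.51). Xaf1 had 142 and 100.2 (-0.50), and the ADP-ribosyltransferase Parp14 461 and 332 (-0.47). Rtp4 had 163 and 125 (-0.39). The dynamin-like GTPases Mx1 and Mx2 differed by -0.45 and -0.36, both below the filter. At the other end Bst2, the tetherin that holds budding virus at the membrane, had 108 and 101 (-0.10), Ifi35 261 and 262 (0.01) and Ifi27 118 and 129 (0.13). Trim30a was dim, at 20.6 and 19.7. In this group 3 of 15 were at least 1.5-fold lower (2.8% of all genes were) and 13 had negative differences (50.2% of all genes). The median was -0.39.

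The Ifit genes neighbour each other on chromosome 19 in the RefSeq table, and their differences were uneven. Ifit3 had 130 and 109 (-0.25). Beside the members, Ifit1bl1 had 686 and 429 (-0.68) and Ifit3b 32.2 and 12.2 (-1.40), the latter dim on both arrays. Ifit3 and Ifit3b are close copies, and their probe sets may pick up each other's RNA, so the gap between them is uncertain.

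The 9 interferon-inducible GTPases measured alone, from families that act in defence against intracellular pathogens, all had negative differences. At least 1.5-fold lower were 2 of the 9 (22.2%), beside 2.8% of all genes. Gbp2 and Tgtp1 are not among the 9, since they shared probe sets with a close relative. The probe set of Gbp2 and Gbp2b differed by 0.27, and those of Tgtp1 and Tgtp2 by 0.32 and -0.42. Iigp1 had intensities of 78.8 and 45.9 (-0.78, 1.72-fold lower). Gbp4 had 45.2 and 28.2 (-0.68), dim on both arrays. Irgm2 had 96.1 and 64.3 and lay just short of the threshold (-0.58, 1.495-fold lower). Its neighbour Igtp, with a nearly identical promoter stretch, had 90.3 and 78.2 (-0.21). Irgm1 had 86.3 and 69.2 (-0.32).

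Most guanylate-binding proteins differed by still less. Gbp7 had 275 and 233 (-0.24), Gbp3 67.2 and 57.2 (-0.23), and Gbp5 37.7 and 35.3 (-0.09). Gbp6 was far below the filter, at 10.05 and 9.21. The 9 measured GTPases had a median of -0.24. The guanylate-binding and immunity-related GTPase families hold close copies, so single values are uncertain where probes bind several of them.

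Mainly type I genes had a lower median than mainly interferon-gamma genes, but the classes overlapped. The intensity filter was passed by 23 of 29 type I genes and by 7 of 12 interferon-gamma genes. The 29 type I genes had a median difference of -0.39, a range from -0.98 to 0.13, and 5 at least 1.5-fold lower (17.2%). The 12 interferon-gamma genes had a median of -0.24, a range from -0.78 to -0.09, and 2 at least 1.5-fold lower (16.7%). These shares were nearly equal, beside 2.8% of all genes. The type I median minus the interferon-gamma median was -0.15. Within the range of the interferon-gamma genes lay 19 of the 29 type I genes. All 12 interferon-gamma genes measured alone had negative differences, against 24 of 29 type I genes. Probe sets shared with a close relative are not counted here. They differed by 0.27 (Gbp2 and Gbp2b), 0.12 (Oas1a and Oas1g), and 0.32 and -0.42 (Tgtp1 and Tgtp2). Without the 9 listed members that answer to both kinds or mark a lineage, the medians were -0.36 for 23 type I genes and -0.24 for 9 interferon-gamma genes. Those 9 interferon-gamma genes are all interferon-inducible GTPases. By the means, -0.37 and -0.33, the classes were closer. No test of this difference is possible with 1 array per diet, and genes are not replicates.

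**Figure D3:**
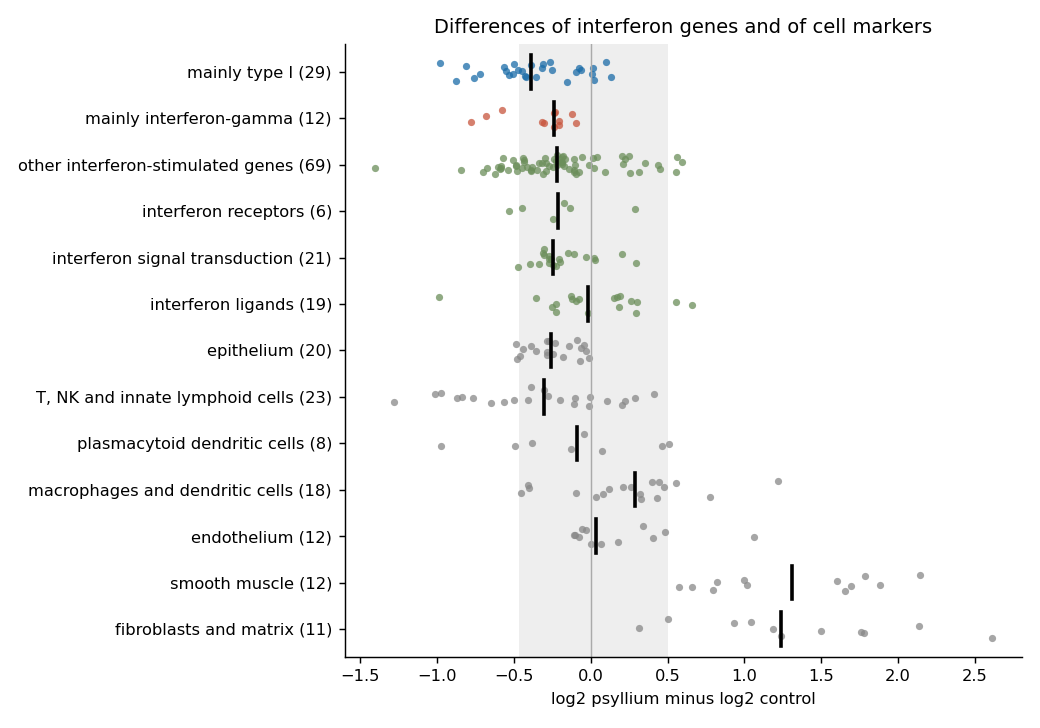
Each point is a gene's log2 difference, psyllium minus control, black bars are group medians, the grey band holds the middle 90% of all genes (-0.47 to 0.50), and brackets give the number of genes. The type I and interferon-gamma classes overlap widely and have medians of -0.39 and -0.24. The epithelial median is -0.26, whereas smooth muscle and matrix genes lie far to the right.

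ISRE-like letters did not go with a lower value among the measured members with a promoter. No promoter was given for Usp18, Iigp1 and Gbp4, each at least 1.5-fold lower, so these genes are in neither group. The 19 measured members with such letters had a median of -0.24, and the 10 without had one of -0.40. Oasl2 and Ifit2, among the lowest, had none in their windows. The 10 measured members with GAS-like letters had a median of -0.22 and the 19 without had -0.32.

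Other cell types differed between the arrays at the same time. Of 20 epithelial genes all had negative differences (50.2% of all genes did) and none was 1.5-fold lower (2.8% of all genes were). Their median was -0.26, their range -0.49 to -0.01, and their summed intensities 34967 and 30323. Of 41 members 24 lay below that epithelial median and 13 below the lowest epithelial gene, Cdx2. The type I median was lower than the epithelial one by 0.13, whereas the interferon-gamma median was higher by 0.02. Smooth muscle genes had a median of 1.31, with 11 of 12 at least 1.5-fold higher, and matrix genes one of 1.24, with 9 of 11. Of all genes 3.42% were as much higher. The part that tissue composition has in the members' values was not tested.

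Lymphocyte genes, from cells that make interferon-gamma, differed in part too. The list of T, NK and innate lymphoid markers had a median of -0.31 and summed intensities of 1707 and 1243. Of its 23 measured genes 7 were at least 1.5-fold lower (30.4%, beside 2.8% of all genes) and 0 as much higher (beside 3.42%). Cd3e, a subunit of the T cell receptor complex, had 175 and 72.0 (-1.28), and Ccl5 had 139 and 70.9 (-0.97). The other 16 were within 1.5-fold. Of the 23 genes 5 had positive differences, among them Cd3d of the same receptor complex (23.9 and 31.8, 0.41) and Tbx21 (46.9 and 57.3, 0.29). Both lay below the filter. Of the 41 members 22 lay below the median of this T, NK and innate lymphoid list and 0 below its lowest gene, Cd3e. The type I median minus this list's median was -0.08, and the interferon-gamma median minus it was 0.07. Macrophage and dendritic cell genes, by contrast, had a median of 0.29 and summed intensities of 2769 and 3046. Of these 18 genes 2 were at least 1.5-fold higher (11.1%, beside 3.42% of all genes). In 4 of the 18 the difference was negative, among them Cd14 (549 and 401, -0.45) and Mertk (540 and 406, -0.41). Plasmacytoid dendritic cell genes mark a strong source of type I interferon. Of 8 such genes 6 were below the filter, 1 was at least 1.5-fold lower (12.5%, beside 2.8% of all genes) and 3 had positive differences. Their median was -0.09. Siglech had 41.5 and 29.5 (-0.49) and Pacsin1 40.6 and 56.1 (0.47). Klk1, on this list (0.51), is also abundant in colon epithelium. No list gene has an intensity of 0 on these arrays. Whether these cells contributed to the members' values was not tested. The colon markers Car1 (10099.8 and 7791) and Muc2 (9087 and 11892) were far above the filter on both arrays. Of the 11 measured colon markers 2 were at least 1.5-fold lower (18.2%, beside 2.8% of all genes). These were Car4 (1029 and 385, -1.42) and Aqp8 (-2.60), whose psyllium value of 50.5 lay below the filter.

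The interferons themselves gave no common direction. Of 19 measured ligand genes 15 were below the intensity filter, 10 had negative and 9 positive differences, and the median was -0.02. Ifng had 29.5 and 25.3 (-0.23) and Ifnb1 13.2 and 15.1 (0.19), both dim. The lambda gene Ifnl2 had 153 and 225 (0.55) and Ifnl3 85.4 and 71.8 (-0.25). These are close copies, as are the interferon-alpha genes, so their single values are uncertain.

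No receptor or signalling gene was 1.5-fold lower or higher, beside 2.8% and 3.42% of all genes, and their medians were negative. The 6 receptor chains had a median of -0.21, with 5 negative differences. Ifnlr1, the lambda interferon receptor chain of epithelial cells, had 96.8 and 67.0 (-0.53), the latter below the filter, and Ifngr2 had 1294 and 947 (-0.45). Ifnar2, a chain of the type I receptor, was the exception, with 195 and 238 (0.29), while its partner Ifnar1 had 556 and 468 (-0.25). Of 21 signalling genes 17 had negative differences, and the median was -0.25. Jak2 had 1148 and 983 (-0.22) and Jak1 870 and 883 (0.02). These medians lie beside the epithelial one of -0.26.

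Further interferon-stimulated genes, listed outside the members, went the same way on balance but less uniformly. Of 69 measured 53 had negative differences (76.8%, beside 50.2% of all genes), with a median of -0.22. At least 1.5-fold lower were 8 (11.6%, beside 2.8% of all genes), and 1 was at least 1.5-fold higher (1.45%, beside 3.42%). Past the filter on at least 1 array the lower ones were Sp110, a nuclear body protein (91.6 and 51.0, the latter below the filter, -0.84), Ifit1bl1, Phf11d (-0.60), Trim25, the ubiquitin ligase that activates RIG-I (385 and 256, -0.59), and Cxcl9, a T cell chemokine induced mainly by interferon-gamma (123 and 82.0, -0.59). Serping1, the complement C1 inhibitor, was the higher one (310 and 468, 0.59).

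**Figure D4:**
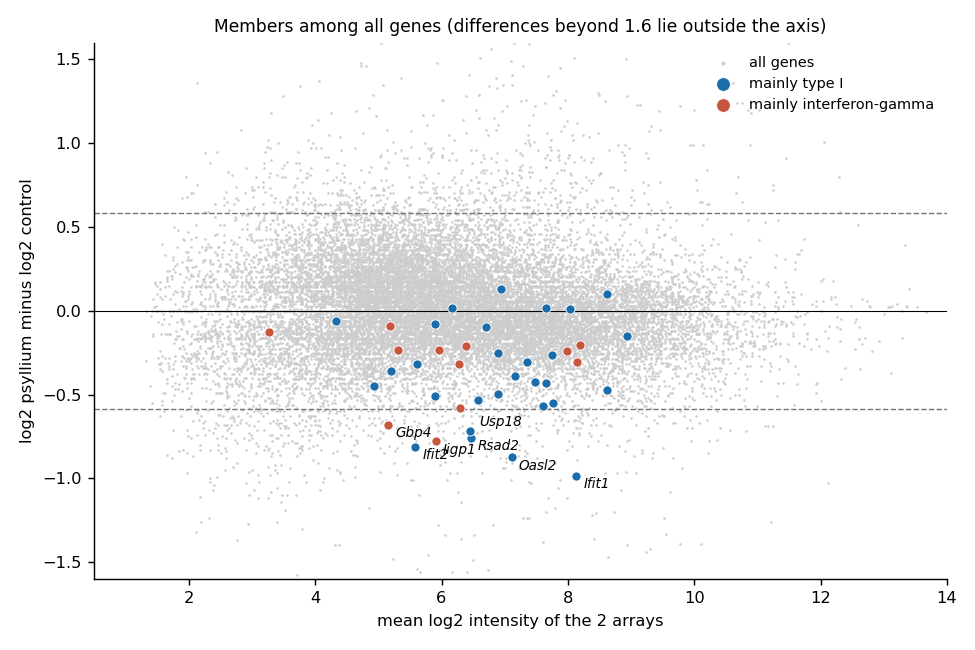
Log2 difference, psyllium minus control, against the mean log2 intensity of the 2 arrays, for all 22180 genes (grey) and the 41 measured members (blue for mainly type I, red for mainly interferon-gamma), with dashed lines at 1.5-fold. The 7 named members below the lower line span dim genes such as Gbp4 and brighter ones such as Ifit1 at -0.98, and no member lies above the upper line.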

How the data were processed

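Total RNA was labelled with biotin and hybridised to 2 arrays, 1 per diet. The deposited values are normalised intensities, 1 for each probe set, not on a log scale, with medians of 48.9 (control) and 49.8 (psyllium). Per the submitters' processing notes the authors used RMA and Affymetrix Expression Console, with no version named. If arrays were equalised, differences are relative to the bulk of transcripts. No source used here says whether they are antilogs of RMA output.

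Of 41345 probe sets 23521 named 1 gene in GEO's platform annotation, 1814 several and 16010 none here. Symbols were updated by gene number through RefSeq (23328 matched). The probe set with the highest mean was used for a gene with several. Intensities were converted to log2 with no pseudocount. A filter intensity of 69.5, the median over genes of the higher value, marks dim genes. It was not used to drop members. The code was tested on simulated data. Python 3.11.15 and pandas 2.3.3 were used.

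Members, classes, lists and the rule for named genes (all members at least 1.5-fold apart and the brightest of each role; of other pathway lists, up to 6 past the filter at least 1.5-fold apart or else 2 of the brightest) were chosen with earlier results of these data known. Genes such as Stat2, Ifng, Ifnl2, Siglech, Cd3e and Ifnlr1 were also named after their values were seen. The number of arrays limits the precision.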

Additional observations from a re-analysis of the deposited data

Results flagged for a closer look

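Probe sets that name a member together with a close relative were left out of the comparison, and 3 of them were brighter on the psyllium array. The probe set naming Gbp2 and Gbp2b had intensities of 130 (control) and 157 (psyllium), a difference of 0.27, while the probe set of Gbp2b alone had one of -0.31 below the intensity filter. The probe set naming Oas1a and Oas1g had 102 and 110 (0.12), whereas that of Oas1g alone had -0.43. Of the 2 naming Tgtp1 and Tgtp2, both below the filter, 1 had 24.9 and 31.2 (0.32) and the other 43.9 and 32.9 (-0.42). Each was singled out because the psyllium value exceeded the control value in data that the comparison did not use.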

How the results depend on the processing

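With 1 array per diet no replicate could be left out. No paired analysis was possible because each diet has 1 array. Across a pseudocount of 16, the mean of probe sets, the intensity filter, quantile normalisation, centring on medians and removal of the intensity trend, the members' median ranged from -0.36 to -0.26. The count at least 1.5-fold lower ranged from 5 of the 30 members past the filter to 10 of 41 after centring, with none 1.5-fold higher. Centring also moved the median of all genes, to -0.045. The shares of all genes past 1.5-fold under these alternatives are not given. The filter reads the brighter array, so it adds no support: of the 5 lower members it keeps, Rsad2, Iigp1 and Usp18 pass on the control array alone. With these and the narrower classes, the type I median stayed below that of interferon-gamma, by -0.15 to -0.08. For the 7 members at least 1.5-fold lower, 38 of their 40 values under alternatives moved by less than 0.17, and none of the 40 reversed. The 0.17 is the median gap between probe sets of 1 gene over 332 genes. Some of these 38 values could not move. Each of the 7 members has 1 probe set, so the mean of probe sets returns the same value. The intensity filter only keeps or drops a gene and leaves its value unchanged. With the pseudocount the dim Gbp4 and Ifit2 moved to -0.47 and -0.61.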

Other observations

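The interferon-induced transmembrane genes, which block viral entry and neighbour each other on chromosome 7, had differences of opposite sign. Ifitm3 had intensities of 401 and 592 (0.56) and Ifitm2 74.8 and 86.6 (0.21), whereas Ifitm1 was dim, at 28.4 and 22.8 (-0.32). The immunoproteasome subunits Psmb8, Psmb9 and Psmb10 had small negative differences (-0.19, -0.19 and -0.22). Of the proteasome activator's subunits Psme1 had 979 and 746 (-0.39) and Psme2 72.2 and 92.2 (0.35). Of the 3 interferon-induced ligands of the receptor CXCR3, Cxcl9 differed by -0.59, Cxcl10 had 42.0 and 30.8 (-0.45, below the intensity filter) and Cxcl11 72.4 and 98.1 (0.44). Of the genes in this paragraph Cxcl9 alone was 1.5-fold apart. These genes were chosen after their values were seen.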
